A study of Homo sapiens with 7 samples.

Results

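The genes described here encode xenobiotic and aldehyde metabolising enzymes. The rule that takes them reads the gene symbol and no measured value, but it was drawn up with earlier results of these data known. Protein-coding genes were taken when the symbol placed them in the cytochrome P450 (CYP, with CYP51A1 left out), flavin monooxygenase (FMO), alcohol dehydrogenase (ADH), aldehyde dehydrogenase (ALDH), aldo-keto reductase 1 (AKR1), UDP-glucuronosyltransferase (UGT), glutathione S-transferase (GST) or sulfotransferase (SULT) families, or when it was AOX1, EPHX1, NQO1, POR, CES1 or CES2. This rule took 153 of the 58174 genes in the deposited table, of which 19799 are protein-coding. The largest families were CYP families 1 to 3 with 24 genes, the other CYP genes with 31, UGT with 22, ALDH with 19, GST with 16 and SULT with 13. AKR1 gave 10 genes, ADH 7 and FMO 5. Because membership follows the symbol, the set also holds enzymes of endogenous substrates, such as CYP19A1, the aromatase of oestrogen synthesis, and ALDH18A1, an enzyme of proline synthesis.

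Gene expression was measured in Huh-7 cells, an established line from a human hepatocellular carcinoma. Cells received control siRNA (siC, 3 libraries) or a pool of siRNAs against IGF2BP1 (siImp1, 4 libraries), which encodes an oncofetal mRNA-binding protein, and in both groups RNA was isolated 72 h after transfection. Total RNA was sequenced after removal of ribosomal RNA. A single line and a single pool were used, so effects of losing IGF2BP1 and other effects of the pool cannot be told apart, and the labels do not say whether the replicates were separate cultures, so p-values measure the spread between these libraries, which may be technical.

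Levels are given in FPKM, that is fragments per kilobase of gene length, scaled to the size of the library. The libraries held 12826550 to 33212205 reads on genes. IGF2BP1 itself fell from 82.2 ± 2.03 FPKM in siC to 15.8 ± 0.583 FPKM in siImp1. Here and below, values after ± are SD over the 3 siC or the 4 siImp1 libraries. The library siC replicate 3 stood apart: over all genes its log2 values correlated with those of siC replicates 1 and 2 at r = 0.916 and 0.929, whereas the latter correlated at 0.971. Results that rest on this library are therefore also given without it. The defining hepatocyte marker ALB (albumin) was at 1814 and 1993 FPKM in siC and siImp1 and the hepatocarcinoma marker AFP (alpha-fetoprotein) at 3151 and 2740 FPKM. The 12 hepatocyte and hepatocarcinoma markers summed to 6709 to 8624 FPKM in siC and 8355 to 8651 FPKM in siImp1. By the limma test described below, only APOH passed the threshold. At an unadjusted p under 0.05, 4 were higher and 3 lower, against 11% and 14.8% of all tested genes. Without siC replicate 3, APOH, AHSG, TF and RBP4 were called higher and TTR and FGB lower. The shares over all genes tested in that fit were 3.6% higher and 6.67% lower. Of 13 markers of blood, endothelial and stromal cells, KDR was listed at 0 in all libraries. The means of PTPRC, CD68, VWF, CDH5, COL1A1, DCN and ACTA2 were at most 0.0409 FPKM. In siC and siImp1, PECAM1 was at 2.81 and 3.01 FPKM, COL1A2 at 1.03 and 1.29 FPKM and LUM at 7.47 and 5.70 FPKM. None of the 5 tested markers passed the threshold used below. At an unadjusted p under 0.05, 1 was higher and 2 were lower, against 11% and 14.8% of all tested genes. Without siC replicate 3, CD14 was called higher (log2 change 0.96) and LYZ lower (-0.42), against 3.6% and 6.67% of all genes tested in that fit. Over all 7 libraries, their siC and siImp1 means were 0.892 and 2.25 FPKM (CD14) and 157 and 122 FPKM (LYZ). The sum of the 13, 159 to 175 FPKM in siC and 125 to 141 FPKM in siImp1, was mostly LYZ. In a bulk culture, fewer cells with a transcript and less of it per cell cannot be told apart.

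The liver clears foreign compounds in steps. Oxidation, reduction or hydrolysis first exposes or adds a reactive group, which transferases then join to glucuronic acid, glutathione or sulfate so that the product can be excreted. Alcohol and aldehyde dehydrogenases act in sequence, from alcohol to aldehyde to acid. Hepatocytes are rich in most of these enzymes, and hepatoma lines keep them to varying degrees.

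The promoters of genes on which the results below turn are shown first, since several of these genes are close copies of one another. RefSeq start sites (build GRCh38.p14) gave 250 bases before to 50 bases after the start. The class I alcohol dehydrogenases ADH1A (chr4:99290936-99291235, minus strand), ADH1B (chr4:99321352-99321651, minus strand) and ADH1C (chr4:99352697-99352996, minus strand) lie side by side. Their promoters are printed 5′ to 3′ in the direction of transcription, with matches to GTTAAT (a motif of many liver promoters), to TATAAA (the TATA box) and to CCAAT (the CCAAT box), on either strand, in capitals.
ADH1A: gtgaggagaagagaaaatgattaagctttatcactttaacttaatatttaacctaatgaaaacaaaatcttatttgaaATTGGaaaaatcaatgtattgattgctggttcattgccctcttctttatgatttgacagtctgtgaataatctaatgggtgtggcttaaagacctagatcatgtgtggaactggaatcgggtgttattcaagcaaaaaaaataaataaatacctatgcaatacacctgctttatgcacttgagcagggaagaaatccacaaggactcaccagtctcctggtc
ADH1B: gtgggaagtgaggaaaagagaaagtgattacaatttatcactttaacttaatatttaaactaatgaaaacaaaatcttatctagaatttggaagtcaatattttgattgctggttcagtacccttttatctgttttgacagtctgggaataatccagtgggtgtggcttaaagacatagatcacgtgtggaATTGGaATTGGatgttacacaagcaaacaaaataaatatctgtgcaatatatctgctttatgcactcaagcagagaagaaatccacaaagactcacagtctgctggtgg
ADH1C: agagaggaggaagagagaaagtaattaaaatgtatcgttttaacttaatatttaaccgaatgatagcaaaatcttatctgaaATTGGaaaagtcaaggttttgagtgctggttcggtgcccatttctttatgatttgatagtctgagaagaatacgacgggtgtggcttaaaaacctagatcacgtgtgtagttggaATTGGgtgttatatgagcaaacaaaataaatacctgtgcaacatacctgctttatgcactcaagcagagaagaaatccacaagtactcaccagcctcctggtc

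In pairwise alignment these 3 promoters shared 82.3 to 82.9% of aligned columns. The ADH6 promoter shared 48 to 51.5% with them. An ATTGG, which is CCAAT on the opposite strand, began 53 bases before the start in both ADH1B and ADH1C.

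The alpha-class glutathione transferases GSTA1 (chr6:52803767-52804066, minus strand) and GSTA2 (chr6:52763426-52763725, minus strand) were identical at 288 of 300 promoter bases (96%).
GSTA1: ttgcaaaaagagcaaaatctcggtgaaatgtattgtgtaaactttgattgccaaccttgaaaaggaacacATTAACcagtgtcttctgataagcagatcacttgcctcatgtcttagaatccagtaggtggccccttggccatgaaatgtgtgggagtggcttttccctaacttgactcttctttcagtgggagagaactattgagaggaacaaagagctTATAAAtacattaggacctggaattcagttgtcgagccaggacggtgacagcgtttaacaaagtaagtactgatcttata
GSTA2: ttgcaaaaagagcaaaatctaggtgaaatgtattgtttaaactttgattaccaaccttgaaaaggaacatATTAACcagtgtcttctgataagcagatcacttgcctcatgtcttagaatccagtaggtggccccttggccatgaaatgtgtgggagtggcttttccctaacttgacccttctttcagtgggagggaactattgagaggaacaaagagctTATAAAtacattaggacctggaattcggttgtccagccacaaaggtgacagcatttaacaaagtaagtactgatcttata

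Both hold TATAAA 30 bases before the start and ATTAAC, which is GTTAAT on the opposite strand, 180 bases before it. The remaining pair belongs to ALDH8A1 (chr6:134950052-134950351, minus strand) and AOX1 (chr2:200585764-200586063, plus strand), both of which act on aldehydes.
ALDH8A1: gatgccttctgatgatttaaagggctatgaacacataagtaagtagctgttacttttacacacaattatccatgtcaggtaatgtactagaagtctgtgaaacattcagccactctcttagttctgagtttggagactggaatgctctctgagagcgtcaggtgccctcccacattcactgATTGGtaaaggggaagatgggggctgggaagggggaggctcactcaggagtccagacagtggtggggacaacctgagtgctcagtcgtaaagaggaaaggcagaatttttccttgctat
AOX1: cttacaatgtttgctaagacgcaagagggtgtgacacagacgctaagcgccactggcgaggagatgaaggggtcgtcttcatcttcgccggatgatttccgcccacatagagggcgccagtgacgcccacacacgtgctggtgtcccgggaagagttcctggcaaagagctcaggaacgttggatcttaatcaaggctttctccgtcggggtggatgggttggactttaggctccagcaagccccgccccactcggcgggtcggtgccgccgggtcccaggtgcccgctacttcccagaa

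ALDH8A1 and AOX1 do not resemble each other, with 48.3% of aligned columns identical, and AOX1 holds none of the 3 capitalised motifs. Motif matches are a description of letters, not of bound sites. GTTAAT was found in 6.89% of 27305 promoters and in 3.71% of the promoters of tested genes. Among the enzyme genes it was present in 5 of the 46 tested members with a promoter entry and in 3 of the 7 called members with one, GSTA1, GSTA2 and UGT1A1. TATAAA was found in the same 3 called members, in 10 of the 46, in 12% of all promoters and in 5.27% of those of tested genes. In UGT1A1 its match lay on the opposite strand, 92 bases before the start. GSTA1 and GSTA2, with promoters 96% identical, are not independent matches for either motif. CCAAT was found in ADH1C, ALDH8A1 and UGT1A1, in 18 of the 46, in 35.7% of all promoters and in 37.5% of those of tested genes. On both strands, 4 further motifs were searched, namely the HNF4 site CAAAGTCCA (0.359% of all promoters and 0.339% of those of tested genes), the C/EBP palindrome TTGCGCAA (0.128% and 0.211%), the antioxidant response core TGACNNNGC (13.6% and 15.4%) and the xenobiotic response core GCGTG (36.3% and 52%). They were found in 1, 0, 7 and 12 of the 46 tested members and in 0 of the 7 called members. UGT2B4 has no entry.

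Of the 153 enzyme genes, 17 were listed at 0 in all libraries, 82 had a mean above 0 and below 1 FPKM over the 7 libraries, and 54 reached 1 FPKM and were tested together with all 14839 genes that did. The test was limma, with its prior variance following a trend in level, on log2(FPKM + 0.1), two-sided, with Benjamini-Hochberg adjustment over all tested genes and a threshold of 0.01. Log2 changes are given as siImp1 minus siC on that scale, where the added 0.1 shrinks the change of low genes. Listed at 0 throughout were, among others, CYP2A6, CYP2A7 and CYP2A13, the bile acid enzyme CYP8B1, and GSTA3 and GSTA5.

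After IGF2BP1 knockdown, 8 of the 54 tested enzyme genes were higher and 0 were lower. The same test called 1.65% of all tested genes higher and 2.28% lower, against 14.8% of the tested enzyme genes higher. The genes that rose were ALDH8A1, UGT1A1, AOX1, ADH1C, GSTA1, GSTA2, UGT2B4 and ADH6, with log2 changes from 0.79 to 2.33. At an unadjusted limma p under 0.05, 17 enzyme genes were higher and 10 lower, against 11% and 14.8% of all tested genes. The median log2 change was 0.03 over the tested enzyme genes and -0.02 over all tested genes. For 17 enzyme genes every siImp1 library lay above every siC library and for 7 every one lay below, against 11.9% and 15.1% of all tested genes. ALDH8A1, UGT1A1, AKR1D1 and SULT1A1 had siC means below 1 FPKM and entered the test through their siImp1 values. Without a filter on level, 136 members could be tested, of which 7 were higher, with ADH1B added and GSTA1 and GSTA2 lost, and 0 lower, against 0.425% and 0.6% of 34319 genes. From a mean of 0.5 FPKM, 65 members could be tested, of which the same 8 were higher and 0 lower, against 1.32% and 1.71% of 17607 genes. Without siC replicate 3, 10 enzyme genes were higher, including the 8 above, and 2 were lower, against 3.6% and 6.67% of 14814 genes. Without any 1 of the other libraries, 6 were higher and 0 lower, against 0.446 to 0.588% and 0.357 to 0.737% of all genes tested in those fits.

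**Figure D1:**
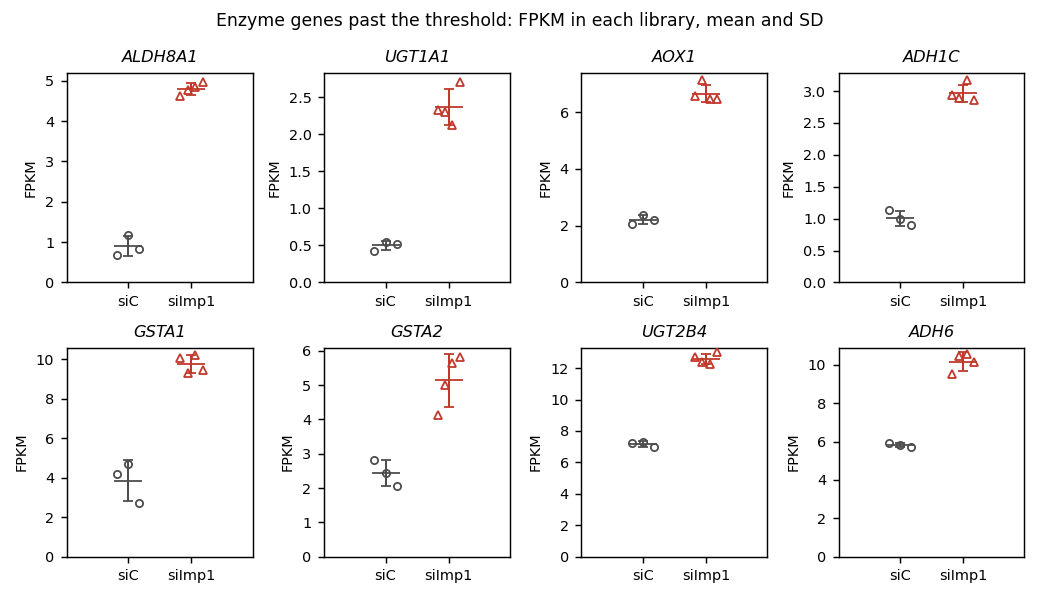
FPKM (linear axis from 0, a separate scale in each panel) of the 8 enzyme genes past the threshold, in 3 siC libraries (circles) and 4 siImp1 libraries (triangles); horizontal bars and whiskers give mean and SD. In each panel all siImp1 libraries lie above all siC libraries.

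The plot of FPKM in each library shows the distance between the groups beside the spread within them. For each of the 8 genes the groups were separate. For GSTA1, siC replicate 3 was the low library of its group.

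Among alcohol and aldehyde dehydrogenases, 3 of 15 tested genes were higher and 0 lower, against 1.65% and 2.28% of all tested genes. An unadjusted limma p under 0.05 was reached by 3 higher and 3 lower genes, against 11% and 14.8% of all tested genes. ALDH8A1 (chromosome 6, 134917393 to 134950115, minus strand in the GENCODE v44 annotation of GRCh38) encodes an aldehyde dehydrogenase that acts on 2-aminomuconic semialdehyde in tryptophan breakdown and on retinal. Its level was 0.687, 1.16 and 0.836 FPKM in siC replicates 1 to 3 and 4.62, 4.78, 4.84 and 4.97 FPKM in siImp1 replicates 1 to 4. Every siImp1 library was thus at least at 4.62 FPKM and no siC library exceeded 1.16 FPKM. The mean rose from 0.896 ± 0.245 to 4.80 ± 0.146 FPKM, a ratio of 5.36. This is a log2 change of 2.33 (SE 0.163), with a limma adjusted p of 0.000546. It rested on 33 to 107 reads per siC library and 184 to 257 per siImp1 library, and it ran from 2.17 to 2.51 in the fits without 1 library, past the threshold in 7 of 7.

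The other 11 tested ALDH genes did not pass. ALDH1A1, the cytosolic retinal and acetaldehyde dehydrogenase, was the most abundant, with 284, 301 and 359.8 FPKM in siC and 312, 367, 294 and 301 FPKM in siImp1. The groups overlapped, and its log2 change was 0.02 (95% interval -0.26 to 0.29, limma adjusted p = 0.95), with a sign that depended on the libraries included. ALDH2, the mitochondrial acetaldehyde dehydrogenase, had means of 10.2 and 11.9 FPKM (limma adjusted p = 0.461). Its log2 change was 0.27 with siC replicate 3 and -0.00056 without it. ALDH6A1, of valine and pyrimidine breakdown, was at 6.89, 7.20 and 8.68 FPKM in siC and 5.92, 5.77, 5.77 and 5.41 FPKM in siImp1. All siImp1 libraries were below all siC libraries, and the log2 change of -0.40 had a limma adjusted p of 0.0365. The siImp1 libraries were also below all siC libraries for ALDH3A2, the fatty aldehyde dehydrogenase (means of 25.7 and 19.0 FPKM), and for ALDH5A1, the succinic semialdehyde dehydrogenase (8.83 and 7.05 FPKM), at limma adjusted p of 0.10 and 0.0661.

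The 7 ADH genes lie next to each other on chromosome 4, within 365 kb, and differed in response. ADH5, the class III enzyme that oxidises glutathione-bound formaldehyde and is expressed in most tissues, was at 56.4 ± 7.94 FPKM (siC) and 57.0 ± 2.75 FPKM (siImp1). Its log2 change was 0.02 (95% interval -0.22 to 0.27, limma adjusted p = 0.92), and it was -0.10 without siC replicate 3. ADH6 (chromosome 4, 99202638 to 99219537, minus strand), a class V enzyme of liver, was at 5.91, 5.81 and 5.74 FPKM in siC and 9.50, 10.5, 10.6 and 10.1 FPKM in siImp1. The groups were separate, and the mean rose from 5.82 ± 0.0839 to 10.2 ± 0.484 FPKM, a log2 change of 0.79 (SE 0.0618, limma adjusted p = 0.000811).

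ADH1C (chromosome 4, 99336497 to 99352746, minus strand), which encodes the gamma subunit of the class I ethanol-oxidising enzymes, was at 1.13, 0.990 and 0.898 FPKM in siC and 2.94, 2.90, 3.16 and 2.86 FPKM in siImp1. Its mean rose 2.94-fold, with a log2 change of 1.47 (SE 0.118, limma adjusted p = 0.000917). Both ADH6 and ADH1C passed in 7 of 7 fits without 1 library.

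ADH1A and ADH1B, the alpha and beta subunits, fell below the filter and were singled out after their values were seen. ADH1B was at 0.017, 0.0579 and 0.0472 FPKM in siC (4 to 20 reads) and 0.661, 0.737, 0.868 and 0.658 FPKM in siImp1 (92 to 149 reads). ADH1A was at 0.122, 0.083 and 0.129 FPKM in siC (4 to 6 reads) and 0.709, 0.732, 0.501 and 0.751 FPKM in siImp1 (15 to 31 reads). No siC library overlapped a siImp1 library for either gene. With no filter, the limma adjusted p was 0.00323 for ADH1B and 0.0116 for ADH1A. The call of ADH1B was lost without siC replicate 1 or 2 or any siImp1 library (limma adjusted p of 0.0159 to 0.0196). ADH4, the class II enzyme, had means of 0.0879 and 0.368 FPKM on 3 to 23 reads, and the stomach enzyme ADH7 was at 0 in all siC libraries and at 0.00607 FPKM in the mean of siImp1. Reads of the class I genes can be shared, since 14.8% of the 50-base stretches of the ADH1A transcript, 9.43% of ADH1B and 19.1% of ADH1C also occur in another gene. For ADH6 this share was 0.

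**Figure D2:**
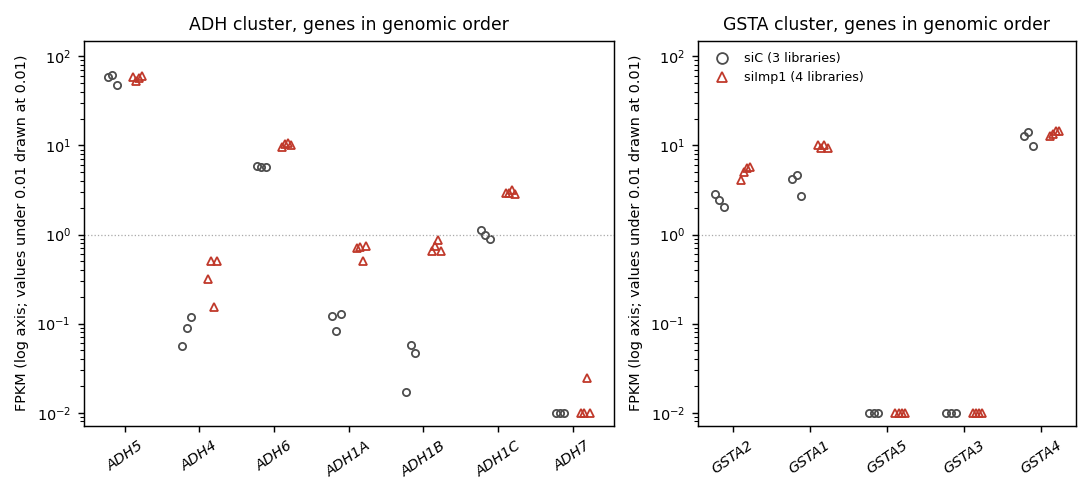
FPKM (log axis, values under 0.01 drawn at 0.01) of the genes of the ADH and GSTA clusters in genomic order, with each siC library as a circle and each siImp1 library as a triangle; the dotted line marks 1 FPKM. In the ADH cluster, ADH4, ADH6, ADH1A, ADH1B and ADH1C lie higher in all siImp1 libraries, while ADH5 overlaps between the groups.

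The plot of the 2 gene clusters also shows the alpha-class GST genes described below, where GSTA2 and GSTA1 were higher, GSTA5 and GSTA3 were listed at 0 and GSTA4 overlapped between the groups.

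Among the oxidases (CYP, FMO, AOX1 and POR), 1 of 14 tested genes was higher and 0 were lower, against 1.65% and 2.28% of all tested genes. An unadjusted limma p under 0.05 was reached by 3 higher genes and 1 lower gene, against 11% and 14.8% of all tested genes. AOX1 (chromosome 2, 200586014 to 200677064, plus strand) encodes aldehyde oxidase, a cytosolic molybdenum enzyme that oxidises aldehydes and nitrogen-containing rings of drugs. It was at 2.04, 2.36 and 2.20 FPKM in siC and 6.56, 7.11, 6.45 and 6.48 FPKM in siImp1. The highest siC library reached 2.36 FPKM and the lowest siImp1 library 6.45 FPKM. The mean rose from 2.20 ± 0.158 to 6.65 ± 0.312 FPKM, a 3.02-fold difference on 168 to 741 reads per library. Its log2 change of 1.55 (SE 0.0785, limma adjusted p = 0.00038) ran from 1.50 to 1.60 in the fits without 1 library, past the threshold in 7 of 7. No 50-base stretch of the AOX1 transcript occurs in another gene.

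Of the 11 tested CYP genes, 0 passed by limma, against 1.65% of all tested genes higher and 2.28% lower. An unadjusted limma p under 0.05 was reached by 2 higher genes and 1 lower gene, against 11% and 14.8% of all tested genes. CYP1A1, the classic target of the aryl hydrocarbon receptor, was the most abundant of CYP families 1 to 3 with 16.6, 15.3 and 11.1 FPKM in siC and 13.4, 12.9, 13.6 and 14.0 FPKM in siImp1. The siImp1 values lay within the range of siC, with a log2 change of -0.07 (95% interval -0.39 to 0.25, limma adjusted p = 0.801). This overlap rested on siC replicate 3, the low library of its group. Without it, all siImp1 values lay below siC, and the log2 change was -0.24 (limma adjusted p = 0.0243). CYP20A1, an orphan CYP and the most abundant of the other families, was at 12.5 and 11.9 FPKM (limma adjusted p = 0.685). CYP4F12, which hydroxylates fatty acids, was at 3.92, 3.98 and 2.77 FPKM in siC and 5.73, 5.74, 5.58 and 5.36 FPKM in siImp1. The groups did not overlap, and the log2 change of 0.66 had a limma adjusted p of 0.0217. Leaving out siC replicate 3 gave 0.49 and an adjusted p of 0.0028 by limma.

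CYP3A4, a main drug-metabolising CYP of adult liver, was low in these cells, at 0.0143 FPKM in siC and 0.0400 FPKM in siImp1 with overlapping groups. CYP2B6 passed the filter with means of 1.01 and 1.37 FPKM, separate groups and a limma adjusted p of 0.207. The electron donor of microsomal CYP enzymes, POR, was at 23.2, 22.7 and 14.2 FPKM in siC and 23.4, 22.6, 25.1 and 23.7 FPKM in siImp1, where siC replicate 3 was the low library. Its log2 change was 0.27 (limma adjusted p = 0.374) with that library and 0.04 (limma adjusted p = 0.567) without it. FMO5 was the only FMO gene that passed the filter, at 1.19 and 1.22 FPKM (limma adjusted p = 0.929).

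CYP1B1, an extrahepatic CYP that oxidises oestrogens and polycyclic hydrocarbons, had a mean between 0.5 and 1 FPKM over the 7 libraries. Its siC mean of 0.459 FPKM was below 0.5 FPKM, so that it was tested because of its siImp1 values. It was at 0.350, 0.374 and 0.652 FPKM in siC and 0.954, 1.00, 0.866 and 1.02 FPKM in siImp1. The groups were separate, with a log2 change of 0.96 and a limma adjusted p of 0.0529 when genes from 0.5 FPKM were tested.

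Of the 3 hydrolases, 0 passed in either direction, against 1.65% of all tested genes higher and 2.28% lower. An unadjusted limma p under 0.05 was reached by 2 higher genes and 1 lower gene, against 11% and 14.8% of all tested genes. CES1, the main carboxylesterase of liver, was at 2.62, 2.88 and 1.78 FPKM in siC and 5.20, 4.90, 4.42 and 5.80 FPKM in siImp1. All siImp1 libraries were above all siC libraries. The means were 2.43 ± 0.575 and 5.08 ± 0.577 FPKM, which gives a log2 change of 1.06 (SE 0.175) that missed the threshold with a limma adjusted p of 0.0114. Without siC replicate 3, the lowest siC library, the change was 0.86 and the limma adjusted p 0.00443. The CES1 reads are uncertain, because 45.8% of its 50-base stretches also occur in the pseudogenes CES1P1 and CES1P2. CES2, the intestinal counterpart, was at 4.61 and 3.55 FPKM (limma adjusted p = 0.139). Its log2 change was -0.36 with siC replicate 3 and -0.50 without it (limma adjusted p = 0.0117). EPHX1, the microsomal epoxide hydrolase, was at 5.59, 5.19 and 5.16 FPKM in siC and 6.64, 6.57, 6.92 and 6.88 FPKM in siImp1, where the groups were separate and the log2 change of 0.34 missed the threshold (limma adjusted p = 0.0155).

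Among the carbonyl and quinone reductases, 0 of 7 tested genes passed in either direction, against 1.65% of all tested genes higher and 2.28% lower. An unadjusted limma p under 0.05 was reached by 4 higher genes and 1 lower gene, against 11% and 14.8% of all tested genes. NQO1, the NAD(P)H quinone reductase, had the highest siC mean of all 153 genes, at 329 FPKM. It was at 344, 343 and 300.1 FPKM in siC and 335, 310.3, 332 and 335 FPKM in siImp1. Its log2 change was -0.0018 (95% interval -0.19 to 0.19, limma adjusted p = 0.993), and it was 0.20 with quantile normalization. AKR1A1, the aldehyde reductase, was at 29.6 ± 4.73 FPKM (siC) and 27.2 ± 1.54 FPKM (siImp1) (limma adjusted p = 0.615). Its log2 change was -0.11 with siC replicate 3 and -0.25 without it (limma adjusted p = 0.0284). AKR1D1, the 5-beta-reductase of bile acid and steroid metabolism, was at 0.903, 0.707 and 0.775 FPKM in siC and 2.05, 1.34, 1.88 and 1.37 FPKM in siImp1. The groups were separate, and the log2 change of 0.96 had a limma adjusted p of 0.0323. Its siC mean was below 1 FPKM, so that it was tested because of its siImp1 values. AKR1C1, AKR1C2 and AKR1C3, hydroxysteroid dehydrogenases of a cluster on chromosome 10, had means of 9.91 and 11.5, 4.01 and 4.99, and 0.319 and 0.636 FPKM, respectively. In all 3 the siImp1 libraries were above the siC libraries, at limma adjusted p of 0.0543, 0.0635 and, with the lower filter, 0.106. AKR1C3 passed that lower filter through its siImp1 values. AKR1B10, a retinal reductase, was at 6.26 and 8.20 FPKM with separate groups (limma adjusted p = 0.061), and AKR1B1, the aldose reductase, at 6.44 and 5.66 FPKM with all siImp1 libraries below siC (limma adjusted p = 0.133). The fourth gene of the AKR1C cluster, AKR1C4, was at 0.571 and 0.368 FPKM with overlapping groups. The 4 AKR1C genes share 14.2 to 47.3% of their 50-base stretches with one another or with other genes.

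Among the conjugating transferases, 4 of 15 tested genes were higher and 0 lower, against 1.65% and 2.28% of all tested genes. An unadjusted limma p under 0.05 was reached by 5 higher and 4 lower genes, against 11% and 14.8% of all tested genes. UGT1A1 (chromosome 2, 233760270 to 233773300, plus strand), the bilirubin glucuronosyltransferase, was at 0.431, 0.552 and 0.520 FPKM in siC and 2.32, 2.30, 2.13 and 2.71 FPKM in siImp1. The lowest siImp1 library was at 2.13 FPKM and the highest siC library at 0.552 FPKM. The mean rose 4.72-fold, with a log2 change of 2.04 (SE 0.168, limma adjusted p = 0.000963) on 32 to 193 reads, and passed in 7 of 7 fits without 1 library. UGT1A genes have separate first exons and common last exons, and 62% of the 50-base stretches of UGT1A1 occur in other genes, so reads in the common part cannot be assigned to 1 gene. In the same locus UGT1A6, UGT1A7 and UGT1A8 were at 0.210 and 0.503, 0.180 and 0.578, and 0.483 and 0.911 FPKM in siC and siImp1. Their groups did not overlap, whereas those of UGT1A9 and UGT1A10 did.

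UGT2B4 (chromosome 4, 69480165 to 69526014, minus strand), which glucuronidates bile acids, was at 7.24, 7.33 and 6.96 FPKM in siC and 12.7, 12.4, 12.3 and 13.0 FPKM in siImp1. The mean rose from 7.17 ± 0.192 to 12.6 ± 0.324 FPKM, with a log2 change of 0.80 (SE 0.0551, limma adjusted p = 0.000536), and passed in 7 of 7 fits without 1 library. It was the most abundant of the 22 UGT genes. Of its neighbours on chromosome 4, UGT2B11 was at 1.51, 1.35 and 1.34 FPKM in siC and 1.06, 0.957, 0.774 and 0.955 FPKM in siImp1. There all siImp1 libraries lay below siC, with a log2 change of -0.54 and a limma adjusted p of 0.114. Of the 50-base stretches of UGT2B11, 40.5% also occur in other genes, so part of its reads could belong to those. The steroid-conjugating UGT2B7 was at 0.454 and 0.566 FPKM with overlapping groups.

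GSTA1 (chromosome 6, 52791371 to 52803860, minus strand) and GSTA2 (chromosome 6, 52750087 to 52763475, minus strand) encode the main glutathione transferases of hepatocytes. GSTA1 was at 4.18, 4.69 and 2.71 FPKM in siC and 10.1, 9.31, 10.2 and 9.45 FPKM in siImp1. GSTA2 was at 2.83, 2.45 and 2.05 FPKM in siC and 4.12, 5.00, 5.63 and 5.81 FPKM in siImp1. All siImp1 libraries lay above all siC libraries for both. The mean of GSTA1 rose 2.53-fold, with a log2 change of 1.35 (SE 0.175, limma adjusted p = 0.00484), and that of GSTA2 rose 2.11-fold, with a log2 change of 1.04 (SE 0.155, limma adjusted p = 0.00755). These 2 calls were kept without siC replicate 3 (limma adjusted p of 0.000458 and 0.00816) and were lost without any 1 of the other 6 libraries (0.0101 to 0.0231 for GSTA1 and 0.0127 to 0.0348 for GSTA2). They were also lost without a filter (0.0106 and 0.0169), and that of GSTA2 with quantile normalization (0.0103). The genes share 26% and 22% of their 50-base stretches, mostly with each other, so that part of the reads could belong to either. GSTA4, the transferase for 4-hydroxynonenal in the same cluster, was at 12.3 and 13.9 FPKM (limma adjusted p = 0.442).

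The other GST genes were not called. GSTM4, of the mu class, was at 2.64 and 1.97 FPKM with all siImp1 libraries below siC (limma adjusted p = 0.138). GSTP1, the pi-class enzyme abundant in many tumour lines, was at 291, 280.0 and 251 FPKM in siC and 239.5, 250.1, 263 and 273 FPKM in siImp1. The groups overlapped, with a log2 change of -0.10 (95% interval -0.29 to 0.10, limma adjusted p = 0.545). GSTO1, an omega-class reductase, was at 109, 110.1 and 86.0 FPKM in siC and 81.3, 73.3, 82.9 and 87.0 FPKM in siImp1. Its log2 change was -0.32 (limma adjusted p = 0.115) with siC replicate 3, the lowest siC library, and -0.44 (limma adjusted p = 0.0074) without it.

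Among 3 tested SULT genes, 0 passed, against 1.65% of all tested genes higher and 2.28% lower. An unadjusted limma p under 0.05 was reached by 1 higher and 1 lower gene, against 11% and 14.8% of all tested genes. SULT2A1, which sulfates bile acids and dehydroepiandrosterone, was at 20.6, 19.3 and 12.1 FPKM in siC and 23.6, 23.9, 26.5 and 28.4 FPKM in siImp1. The groups were separate, and the log2 change was 0.59 at a limma adjusted p of 0.0928. When siC replicate 3 was left out, these were 0.35 and 0.0305. SULT1C4, an enzyme of fetal tissues, was at 4.27, 5.20 and 6.69 FPKM in siC and 3.33, 2.93, 3.44 and 3.43 FPKM in siImp1. Here all siImp1 libraries lay below siC, with a log2 change of -0.68 (SE 0.152) and a limma adjusted p of 0.0326.

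**Figure D3:**
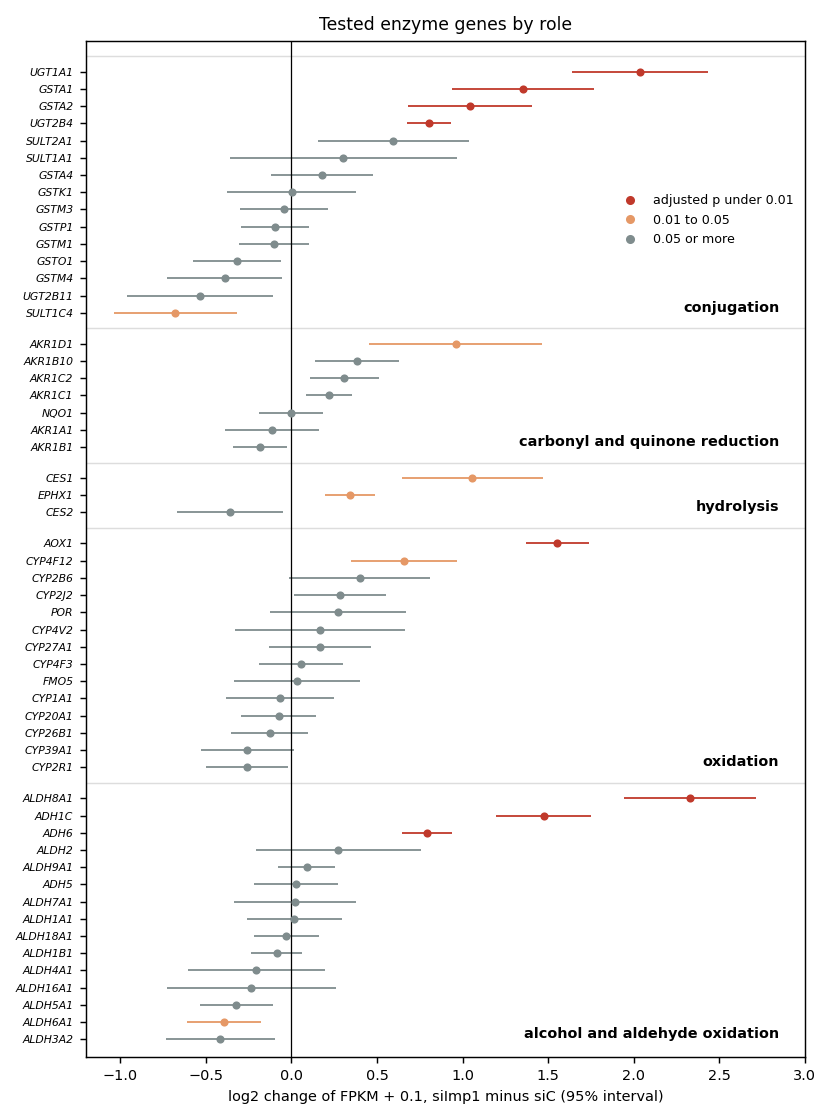
Log2 change of FPKM + 0.1 (siImp1 minus siC, 3 against 4 libraries) with its 95% interval for each of the 54 tested enzyme genes, grouped by role; colours give the limma adjusted p. The 8 genes with an adjusted p under 0.01 all lie to the right of 0, and 6 further genes lie between 0.01 and 0.05, of which 4 are higher and 2 lower.

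The plot of log2 changes by role sets the 8 called genes beside those just outside the threshold. With the looser threshold of 0.05, 12 enzyme genes were higher and 2 lower, against 4.74% and 6.81% of all tested genes. Those added were CES1, EPHX1, CYP4F12 and AKR1D1 on the higher side and SULT1C4 and ALDH6A1 on the lower side.

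The called genes were of low to moderate level. Their siC means ran from 0.501 to 7.17 FPKM, with a median of 2.32 FPKM, compared with a median of 7.58 FPKM for the 46 tested enzyme genes that were not called. Of the 9 tested enzyme genes with at least 20 FPKM in siC, 0 were called, and their log2 changes were at most 0.42 in size. NQO1, ALDH1A1, GSTP1 and GSTO1 together held 63.8 to 68.9% of the summed FPKM of all enzyme genes in each library. That sum was 1528 ± 69.6 FPKM in siC and 1531 ± 15.0 FPKM in siImp1. By library it was 1566, 1570 and 1448 FPKM in siC and 1516, 1533, 1523 and 1551 FPKM in siImp1. The likeness of the means rested on siC replicate 3, without which all siImp1 sums lay below siC. The sum of the 8 called genes went from 23.9 to 54.4 FPKM. The siC mean enters both axes of such a comparison, and the filter on the overall mean admits genes low in siC only when they are higher in siImp1.

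**Figure D4:**
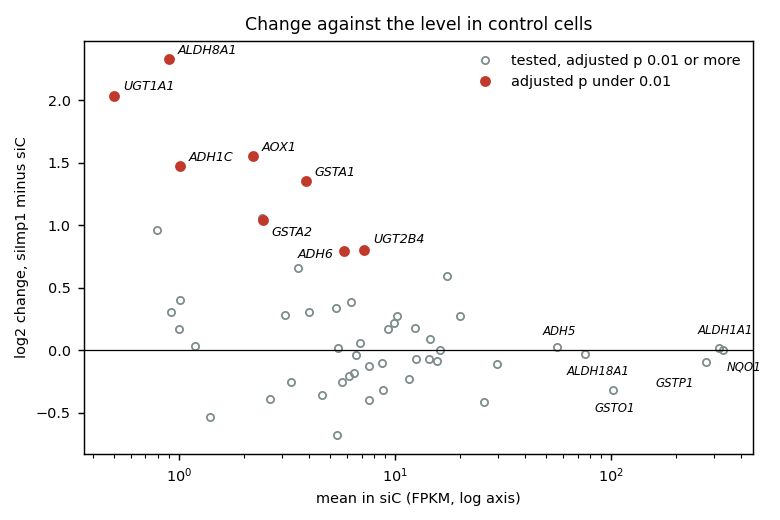
Log2 change (siImp1 minus siC) of each of the 54 tested enzyme genes against its mean in siC (FPKM, log axis), with the 8 genes at an adjusted p under 0.01 filled. The filled points lie at siC means of 0.501 to 7.17 FPKM, and the most abundant genes lie near 0.

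The plot of change against level therefore describes these genes and tests nothing. The 82 enzyme genes between 0 and 1 FPKM are described mainly by overlap. For 18 of them all siImp1 libraries lay above siC, for 1, SULT1A2, all lay below, and for 63 the groups overlapped. Over all 19480 genes in this range the shares were 5.22% above and 2.64% below. Among the 18 are ADH1A, ADH1B and ADH4, AKR1B15 and AKR1C3, ALDH1A2, 4 UGT1A genes, UGT2A1, UGT2A3 and UGT2B10, CYP1B1, CYP2C19 and CYP19A1, and FMO1. Some are near-identical copies that can share reads, and several had under 10 reads in a library, so that they are not independent and are known with little precision. UGT1A8 and AKR1C3, the remaining non-overlapping genes from 0.5 FPKM, changed by 0.78 and 0.83 on the log2 scale, with limma adjusted p of 0.118 and 0.106. Their siC means, 0.483 and 0.319 FPKM, were below 0.5 FPKM, so that both entered that fit through their siImp1 values.

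The reads behind the FPKM values could be recovered as whole numbers, and limma with voom, which weighs reads by their precision, was run on them as an alternative. Of 94 enzyme genes with enough reads, it called 16 higher and 0 lower at 0.01, against 2.57% and 2.9% of 17748 genes. All 8 genes above were among the 16. The others were CES1, CYP4F12, CYP1B1, UGT1A6, ADH1A, ADH1B, CYP19A1 and FMO1. At least ADH1A (4 to 6 reads in siC) and ADH1B (4 to 20) entered this fit only through their siImp1 reads. The filter asked for at least 10 reads in 3 libraries. For ADH1B, the voom log2 change was 4.20 (adjusted p = 0.000225), compared with 2.57 on the FPKM scale with its pseudocount. With array weights, which lower the influence of libraries with larger residuals, limma called 14 enzyme genes higher and 7 lower, against 6.89% and 11.6% of all tested genes. The 7 were ALDH3A2, ALDH5A1, ALDH6A1, ALDH16A1, CES2, GSTO1 and SULT1C4.

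A pair of further gene lists was examined beside the enzymes. Of 30 transcription factors and cofactors that regulate such enzymes, 24 were tested and 0 passed in either direction by limma. Their median log2 change was -0.06. At an unadjusted p under 0.05, 1 was higher and 3 were lower, against 11% and 14.8% of all tested genes. Without siC replicate 3, 0 were called higher and 1 lower, against 3.6% and 6.67% of all genes tested in that fit. The following were picked after their values were seen. NR0B2, a repressor of nuclear receptors, was at 4.38 ± 0.473 FPKM (siC) and 2.45 ± 0.376 FPKM (siImp1), with a log2 change of -0.82 and a limma adjusted p of 0.0147. PPARA was at 2.50 and 1.85 FPKM (log2 change -0.41, limma adjusted p = 0.0400). CEBPB was at 25.5 and 32.6 FPKM (log2 change 0.36, limma adjusted p = 0.0463). AHR, the aryl hydrocarbon receptor, was at 20.4 and 20.6 FPKM (limma adjusted p = 0.90). Its likeness rested on siC replicate 3, at 26.08 FPKM, beside 17.32 and 17.65 FPKM in siC replicates 1 and 2. All siImp1 libraries lay between, at 19.72 to 21.17 FPKM. Dropping siC replicate 3 moved AHR from 0.04 to 0.23 in log2 units, short of the threshold (adjusted p = 0.0138 by limma). HNF4A, a hepatocyte factor, was at 46.9 and 48.9 FPKM (limma adjusted p = 0.785). It moved from 0.08 to -0.10 in the same fit (adjusted p = 0.217 by limma). The xenobiotic sensors NR1I2 (pregnane X receptor, 0.359 and 0.431 FPKM) and NR1I3 (constitutive androstane receptor, 0.0109 and 0.0280 FPKM) were below the filter.

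Of 71 genes for other enzymes of these pathways and for the supply of their cosubstrates, 48 were tested, with a median log2 change of 0.17. Of these, 4 were higher and 2 lower, against 1.65% and 2.28% of all tested genes. UGP2, which makes the UDP-glucose from which UDP-glucuronic acid derives, rose from 14.2 to 18.4 FPKM (log2 change 0.37, limma adjusted p = 0.00981). NAT1, an arylamine N-acetyltransferase, rose from 1.50 to 2.74 FPKM (0.83, limma adjusted p = 0.00647). AADAC, an esterase of the endoplasmic reticulum, rose from 19.1 to 26.7 FPKM (0.48, limma adjusted p = 0.00613). ACSM2B, which activates acids for glycine conjugation, rose from 0.604 to 2.48 FPKM (1.88, limma adjusted p = 0.00111). The siC mean of ACSM2B was below 1 FPKM, so that it entered the test through its siImp1 values. The 2 that fell are redox enzymes. TXNRD1, the cytosolic thioredoxin reductase, fell from 117 to 78.0 FPKM (log2 change -0.59, limma adjusted p = 0.00213), and BLVRB, the biliverdin reductase B, fell from 14.5 to 8.75 FPKM (-0.71, limma adjusted p = 0.00712). Without siC replicate 3, 10 genes of this list were higher, with PAPSS2, GCLC, MGST1, MAOA, MAOB and DPYD added, and 3 lower, with GGT1 added. The shares over all genes tested in that fit were 3.6% higher and 6.67% lower. Without any 1 of the other libraries, ACSM2B was the only call. APOH, the call of the hepatocyte marker list in every fit without 1 library too, rose from 48.6 to 154 FPKM (log2 change 1.69, limma adjusted p = 0.00111). The part of the hepatocyte transcript level in the changes of the enzymes was not tested.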

How the data were processed

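Per the submitters' notes and the methods, the authors depleted ribosomal RNA, made directional libraries, clipped reads with cutadapt 1.14, aligned them to hg38 with HISAT2 2.1.0, used SAMtools 1.5, counted reads per gene with featureCounts 1.5.3 over an Ensembl annotation and tested them with edgeR 3.18.1 after TMM normalization. Whether counting used the strand is not given in the sources used here. The values used are the FPKM deposited per gene and library. The deposited columns of the authors' own log2 fold change, p-value and FDR were not used. FPKM times gene length gave whole reads for 100% of the values checked (tolerance 0.02), with 12826550 to 33212205 reads per library, and libraries of 1 group differed beyond counting error in each pair (chi-square over its degrees of freedom 1.99 to 56.8).

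Groups came from the sample titles. log2 values of FPKM + 0.1 were computed from the deposited FPKM and tested with limma 3.58.1 in R 4.3.3 (eBayes with trend), for genes whose mean reached 1 FPKM, with Benjamini-Hochberg adjustment over all tested genes and a threshold of 0.01. The script was tested on simulated data. Alternatives were a pseudocount of 1, other filters, median centring, quantile normalization, array weights, limma voom on recovered reads (at least 10 in 3 libraries), a replicate block and leaving out each library. The looser threshold of 0.05 and the calls of the lists without 1 library were added after seeing the data. Members and lists were chosen with earlier results of these data known. Named with values are AOX1, ALDH8A1, each member past the threshold, the most abundant tested member of each family and non-overlapping members from 0.5 FPKM, and of the other lists the genes past the threshold. Other genes named, those with an adjusted p from 0.01 to 0.05 included, were chosen after their values were seen. The values of 1 member and of 1 gene of the lists are not reported here. Of the 153 members, 151 matched GENCODE v44 by Ensembl identifier, and the other 2 have no position here. Shared 50-base stretches were counted over GENCODE v44 transcripts, and promoters were read from RefSeq.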

Additional observations from a re-analysis of the deposited data

Results flagged for a closer look

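For 3 of 31 gene values examined in the 4 siImp1 libraries, 1 library lay far from the others, with a gap to its nearest neighbour that took more of the whole range than Dixon's 95% critical value for 4 samples. Chance alone gives about 1.55 such cases among 31. For AOX1 this share was 0.843, and siImp1 replicate 2 was the high library. For ADH1A it was 0.832, and siImp1 replicate 3 was the low library. For NQO1 it was 0.876, and siImp1 replicate 2 was the low library. The siImp1 libraries of AOX1 and ADH1A still lay above every siC library.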

How the results depend on the processing

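The 8 enzyme genes higher and 0 lower became 3 and 0 with a filter at 5 FPKM, which leaves 35 members to test, 14 and 7 with array weights, 16 and 0 with voom, and 12 and 2 at a threshold of 0.05, added after seeing the data. Over all genes, 245 higher and 338 lower became 146 and 206 without a filter, 1022 and 1722 with array weights, 456 and 515 with voom, and 703 and 1010 at 0.05. The fits without 1 library gave 6 to 10 enzyme genes higher and 0 to 2 lower, and 66 to 533 genes higher and 53 to 988 lower in all, where siC replicate 3 gave the highest values (10, 2, 533 and 988). Deviations from the group means correlated at r of -0.0263, -0.118 and -0.111 between same-numbered libraries of the 2 groups. Between other libraries of the 2 groups r ran from -0.169 to 0.201. Deviations within a group depend on one another, so these values cannot show whether the numbers pair the libraries. The labels do not say so either. With the replicate block, in which siImp1 replicate 4 has no partner, 0 of 14839 genes passed in either direction (2389 genes, among them 16 enzyme genes, had an unadjusted p under 0.05), and IGF2BP1 changed by -2.36 (limma adjusted p = 0.0909). The cause of these differences was not tested. Of 450 values of 30 named genes under the alternatives, 388 kept direction and call, 30 lost and 16 gained the call, and 16 changed sign, all in genes near 0. These were ADH5 (-0.0829 with array weights, -0.00043 with the block, -0.0958 to 0.103 without 1 library), ALDH1A1 (-0.0526 to 0.117 without 1 library), CYP1A1 (-0.241 to 0.0452), FMO5 (-0.0566 with quantile normalization, -0.0447 to 0.0990 without 1 library), GSTP1 (0.0512 with quantile normalization) and NQO1 (0.0275 with median centring, 0.20 with quantile normalization, -0.0666 to 0.0319 without 1 library). Genes under 10 reads in a library are limited by depth.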
